A study of Mus musculus with 6 samples.

Results

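Interleukin-6 and interleukin-10 signalling was described here through 9 genes chosen by symbol: the cytokine gene Il6, the receptor genes Il6ra, Il6st, Il10ra and Il10rb, the kinase genes Jak1 and Jak2, the transcription factor gene Stat3 and the feedback inhibitor gene Socs3. All 9 were among the 15912 genes of the table, and all 9 passed the filter on low values, which left 12767 genes for testing. The libraries came from microglia, the resident macrophages of the brain, of male C57BL/6 mice aged 3 months. Every mouse had received LPS (lipopolysaccharide of bacterial membranes, which drives inflammation) at 1 mg/kg into the peritoneum over 4 days, and hippocampi were collected 24 h after the final dose. Live CD11b+CD45lo cells, about 10000 per sample, were sorted from pools of 2 mice into a BODIPY-low gate (few lipid droplets) and a BODIPY-high gate (many lipid droplets), with 3 libraries in each. Both gates therefore carry the LPS exposure, and no untreated group was analysed here. BODIPY is a dye that stains neutral lipid.

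Interleukin-6 is a cytokine that binds its own receptor chain (encoded by Il6ra) and then the signal-transducing chain gp130 (Il6st), which other cytokines of the family also use. Interleukin-10, which restrains macrophage activation, binds a receptor made of a ligand-specific chain (Il10ra) and a chain shared with related cytokines (Il10rb). Both receptors work through Janus kinases, which phosphorylate STAT3, and STAT3 switches on Socs3, whose product binds gp130 and the kinases and shuts the interleukin-6 signal off while leaving the interleukin-10 signal largely intact. Microglia make interleukin-6 after LPS and carry both receptors.

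Promoter sequence is shown for the ends of this circuit, the induced cytokine and the feedback gene, so that their known classes of regulatory motif can be seen beside the values below. The stretches are from RefSeq on build GRCm38.p6, 5′ to 3′ on the strand of the gene, and capitals mark motif matches. Il6 is shown for the 250 bases before its start (chr5:30012864-30013113, plus strand), and Socs3 for 60 bases beginning 180 bases before the RefSeq start (chr11:117969487-117969546, minus strand).
Il6: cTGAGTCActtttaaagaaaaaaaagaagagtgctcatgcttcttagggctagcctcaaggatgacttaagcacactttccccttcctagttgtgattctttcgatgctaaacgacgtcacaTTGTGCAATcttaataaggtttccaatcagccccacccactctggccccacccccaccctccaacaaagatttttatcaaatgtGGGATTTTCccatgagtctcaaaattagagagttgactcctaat
Socs3: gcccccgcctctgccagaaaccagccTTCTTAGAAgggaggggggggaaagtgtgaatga

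In the Il6 stretch the capitals are, from left to right, an AP-1 motif (TGANTCA), a C/EBP motif (TTNNGCAAT) and an NF-kB motif (GGGNNTTTC), beginning 249, 128 and 44 bases before the start. In the Socs3 stretch they are a STAT motif (TTCNNNGAA) that begins 154 bases before the RefSeq start. The single coding Socs3 transcript of GENCODE M21 starts 180 bases further downstream. The whole Socs3 gene of GENCODE M21 spans 117966079 to 117970047, so the printed stretch lies inside the annotated gene. All 4 motifs were searched on both strands, and the matches shown do not overlap one another. Among the 250 bases before the start of 32851 promoters, 6.75% held the AP-1 motif, 1.93% the C/EBP motif, 3.72% the NF-kB motif and 7.02% the STAT motif. Of the 9 genes, 7 had an entry in the promoter table, and none of the 4 motifs matched in the other 5. A match describes the letters only.

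The recovered library totals were 34899413 to 39220494 reads. Microglial identity was checked against 10 markers (among them Tmem119, P2ry12, Cx3cr1 and Sall1), whose summed level was 2415000 to 2821000 normalized counts in the low gate and at 1874000 to 2571000 in the high gate. None of the 10 passed the main test given below, 1 did so in DESeq2 and with libraries of equal number paired (Olfml3, lower), all 10 were on the lower side in BODIPY-high libraries, and their median log2 change was -0.26. Markers of other cells moved with the gate: 9 of 12 border-associated macrophage markers and 7 of 7 choroid plexus markers were called higher (11 and 7 with equal numbers paired). So were 4 of 9 astrocyte, 2 of 7 oligodendrocyte, 1 of 5 mural and fibroblast and 1 of 5 monocyte markers tested (6, 3, 1 and 1 when paired). None of the neutrophil, endothelial, neuronal or lymphocyte markers was called by limma, and 1 neutrophil marker (Retnlg) was when paired. The macrophage markers summed to 17570 to 24500 normalized counts in BODIPY-low and 43990 to 122300 in BODIPY-high libraries, and the choroid plexus markers to 177 to 986 and 13290 to 21880. BODIPY-high library 3 held the most of both. In bulk samples, fewer cells of a type and less RNA per cell cannot be told apart. The part of these cells in the differences described below was not tested.

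None of the 9 genes passed the test between gates (limma, Benjamini-Hochberg adjusted p under 0.05 over all 12767 genes), where 2.05% of all genes tested did. That background was 259 genes higher and 3 lower, and 558 higher and 59 lower once libraries of equal number were paired by a replicate block, which called none of the 9. At an unadjusted p under 0.05, 1 was lower (Il6) and 1 higher (Jak1), against 2.27% of all genes lower, 8.03% higher and 10.3% in either direction. With equal numbers paired, 4 of the 9 were under 0.05 unadjusted (Il6, Il6ra, Il10ra and Jak1), against 17.8% of all genes. The unadjusted count was 3 with DESeq2 (Il6, Il10ra and Jak1) and 2 with edgeR (Il6 and Il10ra), and edgeR and DESeq2 on recovered reads called 0 of the 9. The log2 change was positive in 3 of the 9, against 49.2% of all genes tested, and its median was -0.09, against -0.0043. In 3 genes, Il6, Il6ra and Il10ra, every BODIPY-high library lay below every BODIPY-low library, which 5.95% of all genes tested showed. In Jak1 every BODIPY-high library lay above, as in 10.4% of all genes.

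**Figure D1:**
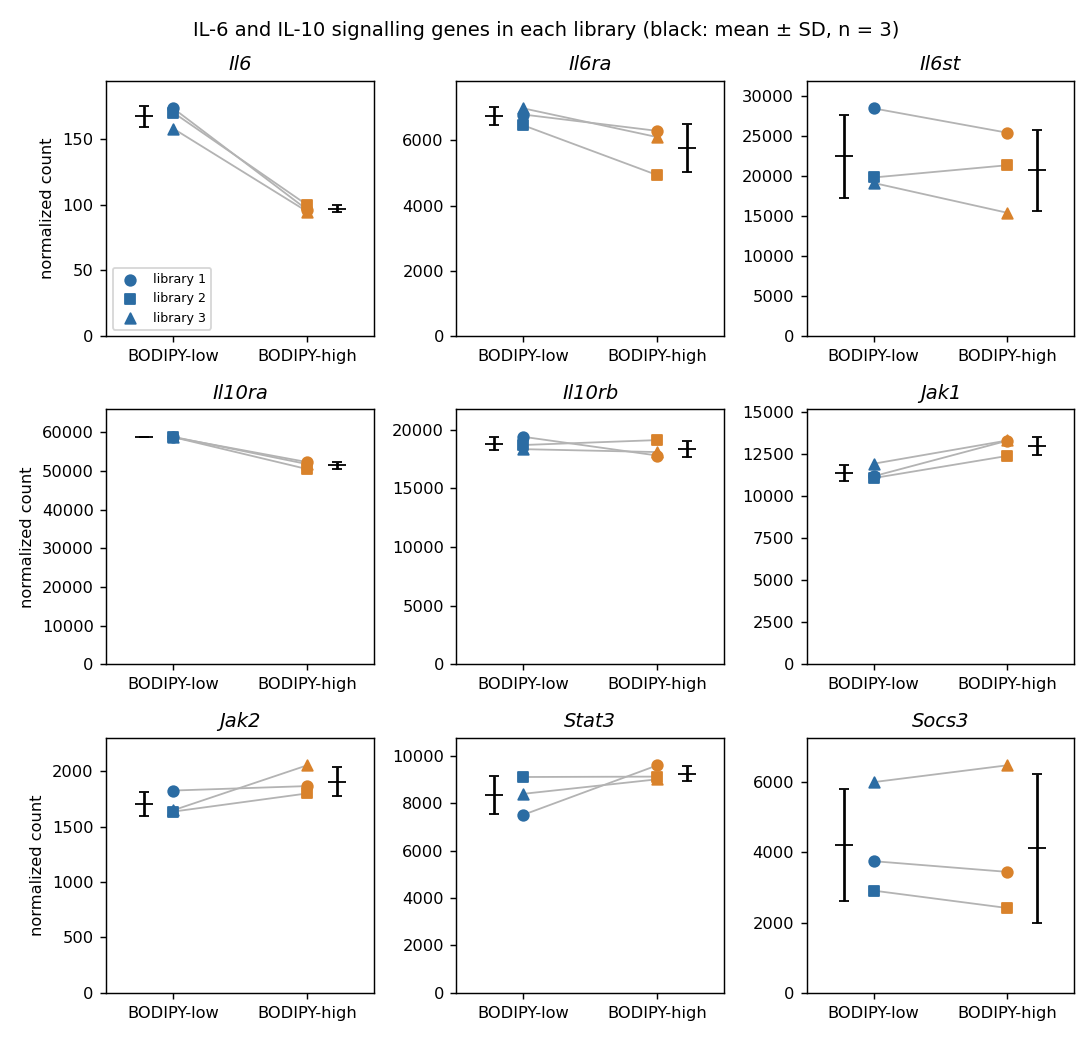
Normalized count (vertical axes, from 0) of each of the 9 genes in the 3 BODIPY-low (blue) and 3 BODIPY-high (orange) libraries; symbols give the library number, grey lines join equal numbers, and black marks give the mean ± SD of a gate. Il6 is at 158 to 173 in the low gate and at 94.7 to 99.7 in the high gate, whereas Socs3 differs more between library numbers than between gates.

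Il6 (ENSMUSG00000025746.11; mm10, chromosome 5, 30013114 to 30019981, plus strand) had the widest proportional gap of the 9. It was at 173, 170.2 and 158 normalized counts in BODIPY-low libraries 1, 2 and 3, and at 96.1, 99.7 and 94.7 in BODIPY-high libraries 1, 2 and 3. The gates did not overlap. The spread within each gate was smaller than counting error alone would give at the read numbers below, so it understates the variation. The means were 167 ± 8.13 and 96.8 ± 2.58 (SD, n = 3 per gate), a ratio of 0.579. In recovered reads this was 158, 165 and 150 against 96, 100 and 103, and the ratio of the summed reads had an exact 95% counting interval of 0.4995 to 0.671, which covers counting error of these libraries only. The log2 change was -0.78 ± 0.24 (SE), with a 95% interval of 0.397- to 0.854-fold, and the gene did not pass over all genes (limma adjusted p = 0.23). With 3 libraries against 3, an exact two-sided permutation test of a single gene cannot go below 0.1.

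The ligand-specific receptor chains were both on the lower side in BODIPY-high libraries. Il10ra (ENSMUSG00000032089.16; chromosome 9, 45253837 to 45269149, minus strand) was at 58635, 58683 and 58765 normalized counts in the low gate and at 52233, 50427 and 51709.7 in the high gate. The 3 low libraries had an SD of 65.7 counts and the 3 high libraries one of 929. An SD of 65.7 is below what counting error alone would give at 53443 to 56903 reads, so it understates the spread. The gates did not overlap, and the ratio of means was 0.877. The log2 change was -0.19 ± 0.09 (SE; limma adjusted p = 0.535), and the 95% interval ran from 0.761- to 1.01-fold. Il6ra (ENSMUSG00000027947.11; chromosome 3, 89864059 to 89913196, minus strand) had 6795, 6463 and 6984 normalized counts in the low gate and at 6292, 4935 and 6101 in the high gate. Its gates did not overlap, but BODIPY-high library 2 lay well below the other high libraries, and without it the log2 change went from -0.23 to -0.12. The ratio of its means was 0.856, with a 95% interval of 0.717- to 1.01-fold (limma adjusted p = 0.53). These log2 changes stand beside the median of -0.26 of the 10 microglial markers in the same libraries.

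The shared receptor chains did not separate by gate. Il10rb (ENSMUSG00000022969.13; chromosome 16, 91406164 to 91425834, plus strand) had 19380.0, 18683 and 18329 normalized counts in the low gate against 17785, 19102 and 18081 in the high gate. The gates overlapped, the log2 change was -0.04 ± 0.08 (SE; limma adjusted p = 0.94), and the 95% interval ran from 0.855- to 1.11-fold. Il6st (ENSMUSG00000021756.12; chromosome 13, 112464070 to 112510086, plus strand) was at 28399, 19772 and 19096 normalized counts in the low gate and at 25354, 21304 and 15365 in the high gate. Library 1 was the highest and library 3 the lowest of each gate, and the gates overlapped. Its log2 change of -0.12 ± 0.20 (SE; limma adjusted p = 0.914) turned to 0.06 without BODIPY-low library 1 and to 0.08 without BODIPY-high library 3. An interval of 0.666- to 1.27-fold leaves changes of moderate size undetermined.

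The signalling kinases and Stat3 were all on the higher side in BODIPY-high libraries by small margins. Jak1 (ENSMUSG00000028530.14; chromosome 4, 101152367 to 101265282, minus strand), a kinase used by both receptors, had 11193, 11084 and 11939 normalized counts in the low gate and at 13312, 12407 and 13324 in the high gate. Its gates did not overlap, each library pair of equal number had the higher value in the high gate, and the ratio of means was 1.14. The log2 change was 0.19 ± 0.08 (SE; limma adjusted p = 0.483). Jak2 (ENSMUSG00000024789.13; chromosome 19, 29251828 to 29313080, plus strand), a second kinase that associates with gp130, had 1826, 1636 and 1648 against 1866, 1799.7 and 2054. BODIPY-high library 2 lay below BODIPY-low library 1, so the gates overlapped (log2 change 0.16 ± 0.11, SE; 95% interval 0.947- to 1.32-fold; limma adjusted p = 0.709). Stat3 (ENSMUSG00000004040.16; chromosome 11, 100885098 to 100939540, minus strand) had 7506, 9097 and 8389 against 9591, 9113 and 9000.4. The gates overlapped, and BODIPY-low library 1 was the lowest. The log2 change was 0.15 ± 0.10 (SE; limma adjusted p = 0.688), and 0.08 without BODIPY-low library 1.

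Socs3 (ENSMUSG00000053113.3; chromosome 11, 117966079 to 117970047, minus strand) followed the library number rather than the gate. It was at 3742, 2906 and 5987 normalized counts in BODIPY-low libraries 1, 2 and 3, and at 3437, 2411 and 6466 in BODIPY-high libraries 1, 2 and 3. In both gates library 3 was highest and library 2 lowest, an order that 4.41% of all genes tested showed. Of the 9 genes, 2 had this order, Socs3 and Jak1. In Jak1 it rested on near-equal values (13312 and 13324 in BODIPY-high libraries 1 and 3), and the number accounted for 16.3% of its variance. For Socs3 the number accounted for 96.9% of the variance of the log2 values and the gate for 0.816%. The median gene tested had 49.0% and 15.4%, and 1.41% of genes had a larger share by number than Socs3. Means were 4212 ± 1593 and 4105 ± 2108 (SD, n = 3 per gate), and the difference between gates lay far inside that spread (log2 change -0.09 ± 0.36, SE; limma adjusted p = 0.97). The log2 change took the opposite sign when BODIPY-low library 3 (0.19) or BODIPY-high library 2 (0.23) was left out. Its 95% interval of 0.536- to 1.64-fold was the widest of the 9.

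Other quantities also differed by library number. The summed level of 7 neutrophil markers was 34440, 104300 and 111200 normalized counts in BODIPY-low libraries 1, 2 and 3. In BODIPY-high libraries 1, 2 and 3 it was 41410, 61670 and 158800. The gene Fos, an immediate early transcription factor, was at 8130, 15144 and 35142 in the low gate and at 8166, 10218 and 49161 in the high gate. Both the marker sum and Fos were highest in library 3 of each gate, like Socs3. Both were lowest in library 1 of each gate, where Socs3 was lowest in library 2. The part of any of these in the Socs3 values was not tested, and the labels do not say what a number stands for.

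**Figure D2:**
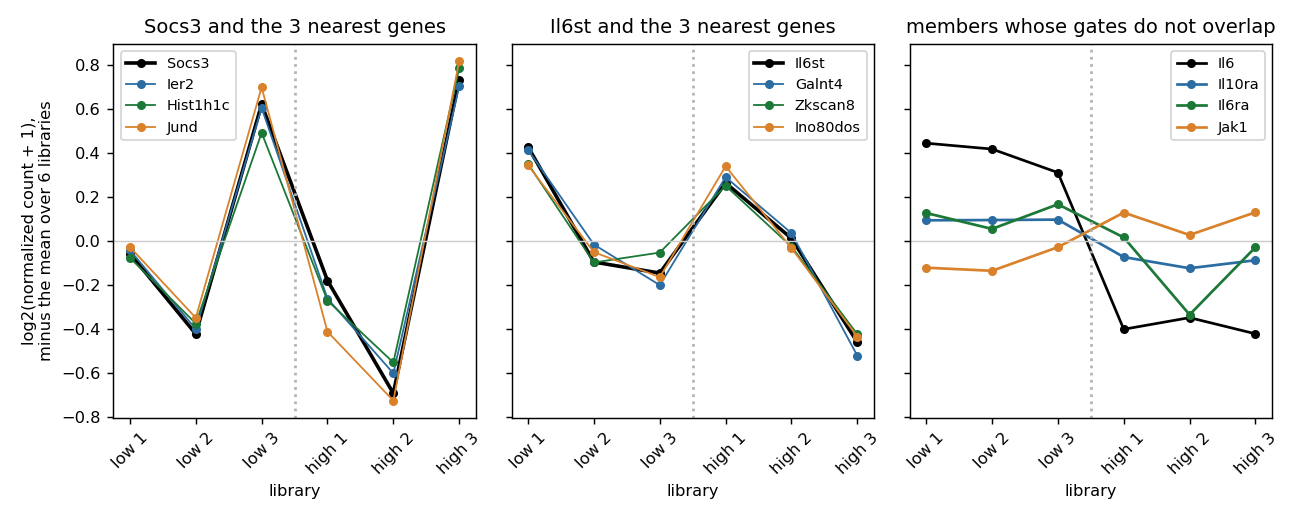
Log2(normalized count + 1) minus the mean of the gene over the 6 libraries (vertical axis) in each library (horizontal axis, low gate left of the dotted line; lines only connect points of 1 gene). Left, Socs3 with Ier2, Hist1h1c and Jund, which peak in library 3 of each gate; middle, Il6st with Galnt4, Zkscan8 and Ino80dos; right, Il6, Il10ra, Il6ra and Jak1, whose gates do not overlap.

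The genes nearest to Socs3 in profile were found among 10908 other genes with a mean of at least 50 normalized counts, by the root mean square difference of log2 values centred over the 6 libraries. They were the immediate early gene Ier2 (0.053), the linker histone gene Hist1h1c (0.091) and the AP-1 gene Jund (0.11), against an SD of 0.57 of Socs3 itself. Ier2 was at 7879, 6145 and 12325 normalized counts in the low gate and at 6765, 5347 and 13188 in the high gate, the order of Socs3 in both gates. Nearest to Il6st were Galnt4 (0.049), Zkscan8 (0.054) and Ino80dos (0.054), with an SD of 0.31 of Il6st. Nearest to Stat3 were Sh3kbp1 (0.02), Akr1e1 (0.034) and Atad3a (0.036), with an SD of 0.13 of Stat3. These distances describe 6 libraries.

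Per kilobase of exon, the receptors of interleukin-10 stood at the top of the 9 and Il6 at the bottom. Il10ra had 16779 ± 18.8 normalized counts per kb in the low gate and at 14710.2 ± 266 in the high gate (SD, n = 3 per gate), followed by Il10rb with 4936 ± 140.4 and 4812 ± 181. Il6st (2020.2 ± 467 and 1863 ± 453), Jak1 (1578 ± 64.4 and 1801 ± 72.8) and Socs3 (1457 ± 551 and 1419.9 ± 729) came next. In the low gate every library of Il6st lay above every library of Jak1, and in the high gate they overlapped, while Socs3 overlapped both in each gate. In the high gate Socs3 also overlapped Stat3. Stat3 (874 ± 83.7 and 969 ± 32.9) and Il6ra (781 ± 30.5 and 668 ± 85.0) overlapped in the low gate and stood apart in the high gate. Jak2 lay below them at 339 ± 21.1 and 379 ± 26.2, and Il6 at 68.8 ± 3.35 and 39.9 ± 1.06. The interleukin-10 receptor chain Il10ra thus had a level per kb above that of Il6ra in every library.

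**Figure D3:**
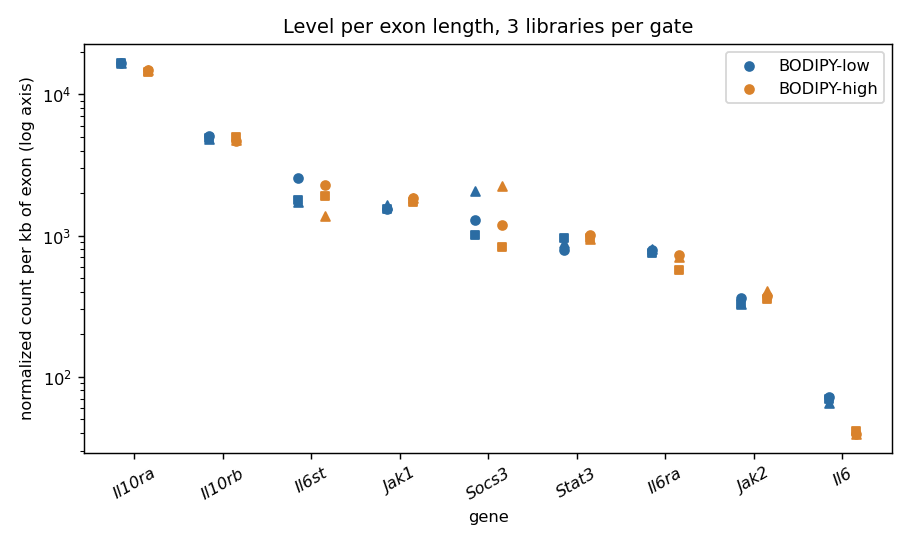
Normalized count per kb of exon (vertical log axis) of the 9 genes, ordered by their mean in the low gate, with blue points for BODIPY-low and orange for BODIPY-high libraries (circle, square and triangle for libraries 1, 2 and 3). Il10ra lies between 14416 and 16799.5 and Il6 between 39.0 and 71.4.

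Reads from exons shared with another gene may have been counted to either gene or to none, and the library kits do not mark strand. In GENCODE M21, exons of Il10rb shared 569 bases with the protein-coding gene Gm21970 on the same strand, and exons of Il6ra shared 242 bases with the antisense gene Gm42809. Stat3 shared 72 bases with Stat5a and Jak1 shared 4 with Raver2, both on opposite strands. Il6, Il6st, Jak2 and Socs3 overlapped no other annotated gene.

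The wider pathway, taken from 6 lists of symbols, held no gene called by limma, edgeR, DESeq2 or limma with the replicate block, next to 2.05% of all genes tested for limma. Of 9 ligand genes of the interleukin-6 family, 6 were tested and 0 passed limma. At an unadjusted p under 0.05, 2 were lower (Il6 and Clcf1), against 2.27% of all genes tested. The median log2 change was -0.03, against -0.0043 for all genes. Apart from Il6, the ligand Clcf1 was at 955, 904 and 831 normalized counts in the low gate and at 794, 591 and 686 in the high gate, with no overlap (log2 change -0.38 ± 0.15, SE; limma adjusted p = 0.395). The highest level of these ligand genes was that of Ebi3, a subunit of interleukin-27, at 1379 ± 22.1 and 1530.2 ± 281 (SD, n = 3 per gate; adjusted p = 0.847). Oncostatin M (Osm), a ligand made by myeloid cells, was at 1054 ± 227 and 969.96 ± 193 (adjusted p = 0.914), and the cardiotrophin gene Ctf1 had 0, 10 and 7 reads against 13, 20 and 18, with no overlap (adjusted p = 0.572).

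Il10 itself had few reads. Of 5 ligand genes of its family it was the only one in the table, and it was tested. It had 0, 1 and 13 reads in BODIPY-low libraries 1, 2 and 3 and 0, 24 and 60 in BODIPY-high libraries 1, 2 and 3. A count of 0 allows up to 3 reads, or 3.29 and 3.00 normalized counts in the libraries concerned. Library 1 of both gates had none, so the gates overlapped, and the limma adjusted p was 0.804. The 2 BODIPY-high libraries with Il10 reads were also those with the higher summed levels of border-associated macrophage markers (48810 and 122300 normalized counts, against 43990 in BODIPY-high library 1). Across gates this order did not hold, since BODIPY-low library 3, with 13 reads, had a sum of 24500, below BODIPY-high library 1 with none. The summed neutrophil markers given above rose in the order of the Il10 reads within each gate. The part of either cell type was not tested.

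Of 15 genes for receptors of both families and the proteases that shed them, 10 were tested and 0 passed. At an unadjusted p under 0.05 there were also 0, against 10.3% of all genes tested. The median log2 change was -0.05, against -0.0043 for all genes. The sheddase genes Adam10 and Adam17, whose products can cut the interleukin-6 receptor from the cell surface, were at 31301 ± 4796 and 21574 ± 1112 normalized counts in the low gate and at 30479 ± 7437 and 23011 ± 3759 in the high gate (SD, n = 3 per gate; limma adjusted p = 0.964 and 0.91). The interleukin-27 receptor gene Il27ra had log2 change 0.47 ± 0.46 (SE, adjusted p = 0.84) and the soluble interleukin-22 receptor gene Il22ra2 -0.72 ± 0.51 (adjusted p = 0.743, with no overlap of gates), both at under 80 normalized counts in every library.

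Of 10 genes of Janus kinases and STATs, all were tested, 9 had a positive log2 change and 0 passed limma over all genes, with a median of 0.17 against -0.0043 for all genes. At an unadjusted p under 0.05, 2 of the 10 were higher (Jak1 and Jak3), against 8.03% of all genes tested, and 49.2% of all genes had a positive log2 change. Jak3, the kinase of the common gamma chain receptors, was at 3284, 3241 and 3325 normalized counts in the low gate and at 3629, 4081 and 4109.8 in the high gate, with no overlap (log2 change 0.26 ± 0.09, SE; limma adjusted p = 0.317). Stat6, the STAT of interleukin-4 signalling, had a log2 change of 0.18 ± 0.10 (adjusted p = 0.613). Stat2, a STAT of type I interferon signalling, was at 1190.4, 1565 and 1419 against 1368, 1475 and 2154, and its gates overlapped (0.24 ± 0.18; adjusted p = 0.77).

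Of 16 genes that restrain the pathway (SOCS and PIAS proteins and phosphatases), all were tested and 0 passed. At an unadjusted p under 0.05, 1 was higher (Cish), against 8.03% of all genes tested. The log2 change was positive in 6 and negative in 10, where 49.2% of all genes were positive. Its median was -0.02, against -0.0043 for all genes. Cish, a SOCS family gene induced by STAT5, was at 26.3, 28.9 and 36.9 normalized counts in the low gate and at 47.0, 72.8 and 70.8 in the high gate. Its gates did not overlap and the ratio of means was 2.07 (log2 change 1.01 ± 0.39, SE; limma adjusted p = 0.389). Socs7 was at 152 ± 31.8 and 111 ± 9.12 (SD, n = 3 per gate; adjusted p = 0.681). The phosphatase genes Ptpn6 (SHP-1) and Ptpn1 were the most abundant of the list, at 22527 ± 1108 and 9677 ± 435 in the low gate and at 23519 ± 279 and 9081 ± 584 in the high gate (adjusted p = 0.888 and 0.837).

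Of 24 genes known as STAT3 targets, 23 were tested and 0 passed limma. At an unadjusted p under 0.05, 1 was higher (Il1rn) and 1 lower (Cebpd), against 8.03% and 2.27% of all genes tested. The log2 change was positive in 8 and negative in 15, where 49.2% of all genes were positive. Its median was -0.09, against -0.0043 for all genes. Cebpd, a C/EBP transcription factor gene, was at 4888, 4442 and 4713 normalized counts in the low gate and at 3297, 3497 and 4287 in the high gate. The gates did not overlap (log2 change -0.35 ± 0.11, SE; limma adjusted p = 0.268). Il1rn, which encodes the antagonist of the interleukin-1 receptor, lay the other way at 109.7, 152 and 137 against 164, 315 and 276, also with no overlap (0.88 ± 0.30; adjusted p = 0.301). Myc had a log2 change of -0.19 ± 0.13 (adjusted p = 0.715).

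Of the 23 STAT3 targets tested, 11 were highest in library 3 of both gates, Socs3 among them (47.8%, against 21.1% of all genes tested). The share of variance by number had a median of 75.9% in the list and 49.0% in all genes. Junb, an AP-1 gene, was at 27249.8, 27406 and 34876 normalized counts in the low gate and at 24586, 21362 and 36451 in the high gate. Zfp36, an RNA-binding protein gene that limits cytokine transcripts, was at 25723, 29469 and 40564 against 26952, 22978 and 40943. Neither separated by gate (limma adjusted p = 0.879 and 0.948). These counts are descriptions, since the pattern was seen in Socs3 first and several of the genes are also immediate early genes.

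**Figure D4:**
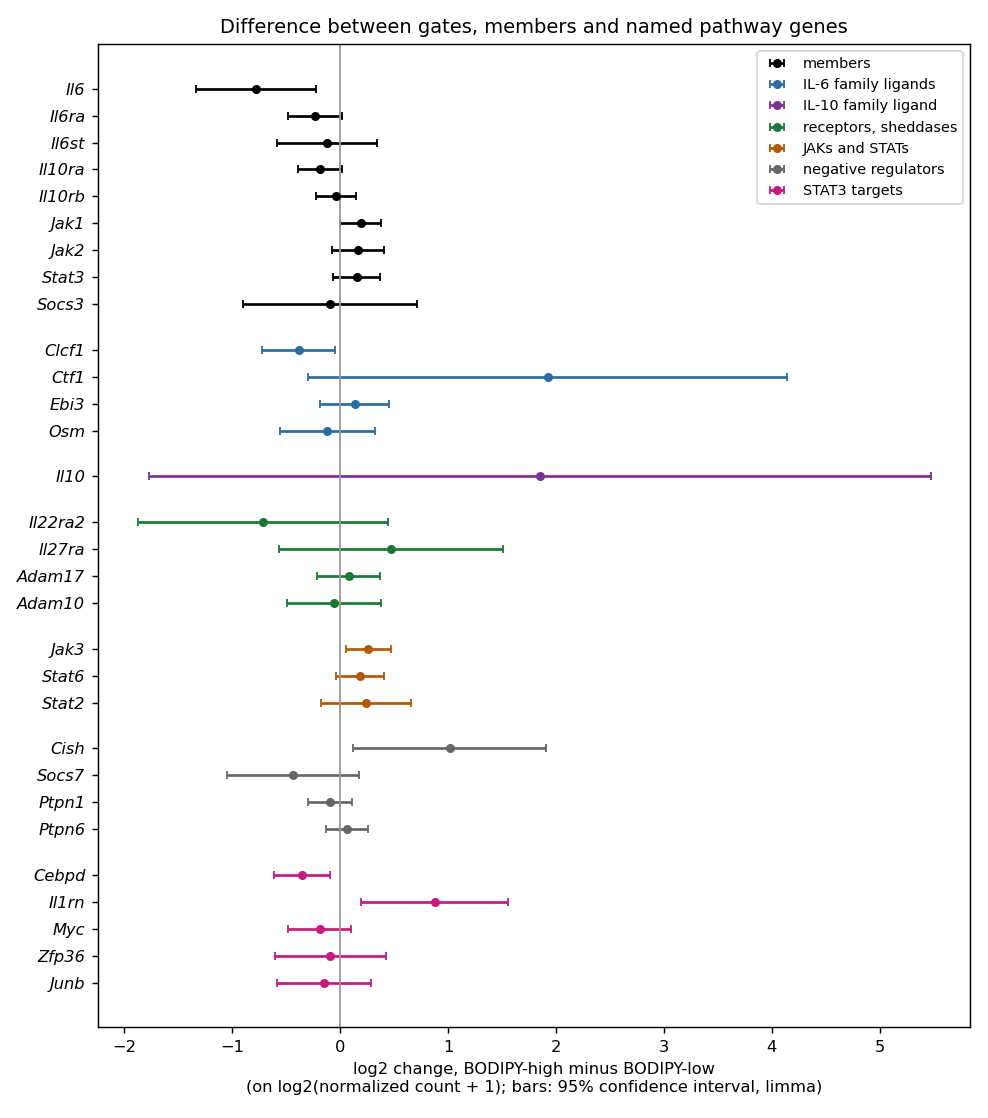
Log2 change (horizontal axis, BODIPY-high minus BODIPY-low, on log2(normalized count + 1)) with its 95% confidence interval from limma, for the 9 genes (black) and the pathway genes named in the text, coloured by list. Il6 lies at -0.78, Socs3 at -0.09 with the widest interval of the 9, and the low-count genes Ctf1 and Il10 have the widest intervals shown.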

How the data were processed

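Libraries were made with the SmartSeq v4 and Nextera XT kits, per the labels' protocols. Reads were mapped to mm10 with STAR 2.5.3a, which also counted them per gene, and compared with DESeq2, per the series' design text. FastQC 0.11.4, and mm9 beside mm10, appear per the submitters' processing notes. The gene annotation behind the counts is not given in the sources used here. What the authors deposited is a signal per gene, a normalized count: from the values, all of them (100%) were whole multiples of 1 step per library within 0.05 of a read. Dividing by the step gave whole reads. In all, 50 genes were at 0 in every library. No library was a copy of another (chi-square per degree of freedom of at least 29.1).

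Gates were compared by limma-trend (limma 3.58.1 in R 4.3.3) on log2(normalized count + 1), two-sided, with no other term, for genes with at least 10 normalized counts in at least 3 of the 6 libraries. For low genes, folds on this scale can lie below or above the ratio of means, and above it for Ctf1, which had a library at 0. P-values were adjusted by Benjamini-Hochberg over every tested gene, and 0.05 was the threshold for a call. edgeR 4.0.16 and DESeq2 1.42.0 on recovered reads, pseudocounts of 0.5 and 5, no filter, TMM scaling, a block for the library number and leaving out each library were alternatives. The fit was tested on simulated data with no effect of library number, so that test does not cover the shared deviations described next. Libraries of equal number deviated together (correlation of deviations from gate means across genes 0.354, 0.244 and 0.363 for numbers 1, 2 and 3), so the numbers were taken to pair libraries. That pairing comes from the data, since the labels do not explain the numbers. They also leave unstated whether replicates are separate pools of mice, and p-values then cover only the spread seen among these libraries, which may be technical. Exon lengths, identifiers and positions are from GENCODE M21 (all 9 genes matched), on the same assembly as mm10.

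The 9 genes, the pathway lists and the tests were chosen with earlier results of these data known. From each pathway list the text names any called gene, the 3 other genes of smallest p and the 2 of highest mean, and for Socs3, Stat3 and Il6st the 3 genes nearest in profile. Fos, Olfml3 and Retnlg were picked after their values were seen. Lif, Cntf, Il19, Il20, Il22, Il24, Il20ra and Il22ra1 were not among the 15912 genes of the table under these symbols, so they were not analysed here. They are counted in the list sizes of 9, 5 and 15 given above. Some genes of the pathway and marker lists are not reported here and were left out of the list counts. Intervals from reads and the floor of 3 reads cover counting error only, because PCR copies are not independent molecules.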

Additional observations from a re-analysis of the deposited data

How the results depend on the processing

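None of the 9 genes passed the threshold under any of the 13 alternatives, and Il6, Il6ra, Il10ra, Il10rb, Jak1, Jak2 and Stat3 kept their direction in all 13. At an unadjusted p under 0.05 stood 1 to 4 of the 9, the most with the replicate block. The adjusted p of Il6 ran from 0.122 (replicate block) to 0.476. Leaving out 1 library moved the log2 change of Il6st between -0.29 and 0.08 and that of Socs3 between -0.48 and 0.23. Il6st was 0.0593 when BODIPY-low library 1 and 0.0758 when BODIPY-high library 3 was omitted, and Socs3 was 0.193 when BODIPY-low library 3 and 0.229 when BODIPY-high library 2 was omitted. The 259 genes higher and 3 lower over the whole table became 558 and 59 with the replicate block, 464 and 32 with DESeq2, and 222 and 1 with edgeR. The block called none of the 9 genes or of the pathway lists, and among the marker lists it added Olfml3, Retnlg, and 2 border-associated macrophage, 2 astrocyte and 1 oligodendrocyte markers. The counts were 135, 117 and 271 higher without BODIPY-low library 1, 2 or 3, and 169, 15 and 59 without BODIPY-high library 1, 2 or 3. Genes lower numbered 2 without BODIPY-low library 3 and 0 without any other library, with 1050 to 1357 genes in either direction at an unadjusted limma p under 0.05. Fewer libraries enter each of these fits, and the cause of the other shifts was not tested. Of 273 values for 21 other named genes, 9 changed sign, all with 1 library left out. The ranges were -0.185 to 0.162 for Adam10 (0.0442 being the other positive value), -0.260 to 0.0513 for Osm (also 0.0292), -0.332 to 0.0936 for Zfp36 (also 0.0845), -0.371 to 0.0142 for Junb, -0.0028 to 0.223 for Adam17 and -0.0109 to 0.225 for Ebi3. Read numbers limit Il10 and Ctf1, which had under 100 reads in all.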
